A study of Homo sapiens with 4 samples.

Results

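The genes described are 8 rhodopsin-like receptors treated as orphans, that is, receptors without an agreed natural ligand: GPR37, GPR37L1, GPR39, GPR161, GPR19, GPR3, GPR6 and GPR12. They were chosen by name from the receptor superfamily, with their measured distance to the detection baseline on these arrays already known, so their levels are given as a description and without a test. All 8 were found among the 17217 genes that could be named, each through 1 RefSeq accession with 3 probes. RNA came from HEK293 cells, an adenovirus-transformed human embryonic kidney line widely used to express cloned receptors, grown on 4 separate plates without any treatment. Each plate was extracted separately and hybridised in a single colour to 1 NimbleGen array of 60-base probes, so the design held 1 group of 4 replicates. All replicates were plates of the same line, and in such bulk RNA a smaller number of expressing cells cannot be told apart from less RNA per cell.

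G protein-coupled receptors cross the membrane 7 times and pass on signals through G proteins and arrestins. GPR37, which resembles the endothelin receptors, is prone to misfolding, and with its relative GPR37L1 it is best known from glial cells of the brain. Prosaposin has been proposed as a ligand of both. GPR39 responds to extracellular zinc. GPR161 resides in the primary cilium, where it raises cyclic AMP through Gs and restrains hedgehog signalling until it leaves the cilium. GPR3, GPR6 and GPR12 form a closely related trio that activates Gs without added ligand, and GPR3 is known for holding oocytes in meiotic arrest. GPR19 is found mainly in brain and in dividing cells.

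The markers of the cells were checked first. Of 9 markers of HEK293 cells, which carry epithelial and neuronal features, 8 were detected, among them VIM, KRT8 and NEFL, and PAX2 was not. NEFM, counted among the 8, varied most between arrays, at 0.66 ± 3.08 log2 units from the baseline (SD, n = 4). It was above the baseline on 2 of 4 arrays. Of 10 markers of fibroblasts, endothelium and blood cells, 2 were detected, COL1A1 and KDR, each above the baseline on 2 of 4 arrays. The mean level of this list over its genes ran from 7.36 to 8.20 log2 units across arrays, and its part in the receptor signals was not tested. The values of replicates 1 and 2 shared 1 distribution and those of replicates 3 and 4 another. Within the pair of replicates 3 and 4, COL1A1 and KDR averaged below the baseline, which left 0 of the 10 genes of that list detected. The same held for GFAP, GLI2 and CDKN1B, which are described with the receptors they were read beside.

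A gene's level was log2 of the mean of its 3 linear probe values. The baseline followed the study's rule, the mean plus 2 SD of seminal protein genes on the same array, and a gene counted as detected if its distance, averaged over the 4 arrays, was above 0. The baseline was 9.47, 9.94, 10.69 and 10.32 log2 units on replicates 1 to 4. Since each probe binds with its own strength, distances place genes against the baseline and do not rank the amounts of different transcripts. Of the 8 receptors, 3 were detected (GPR37, GPR39 and GPR161), each of them on all 4 arrays. By the same rule 9074 of 17217 genes (52.7%) were detected. Of 76 other class A orphan receptors, 6 were. The paper, too, reports high message for GPR37 and GPR39 in these cells. The receptor just inside the threshold was GPR161 and the one just outside was GPR19. For both, the call here is the reverse of the paper's. The paper counts GPR19 among the receptors found in HEK293 cells and GPR161 among those short of statistical significance. The reason for this difference was not tested.

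**Figure D1:**
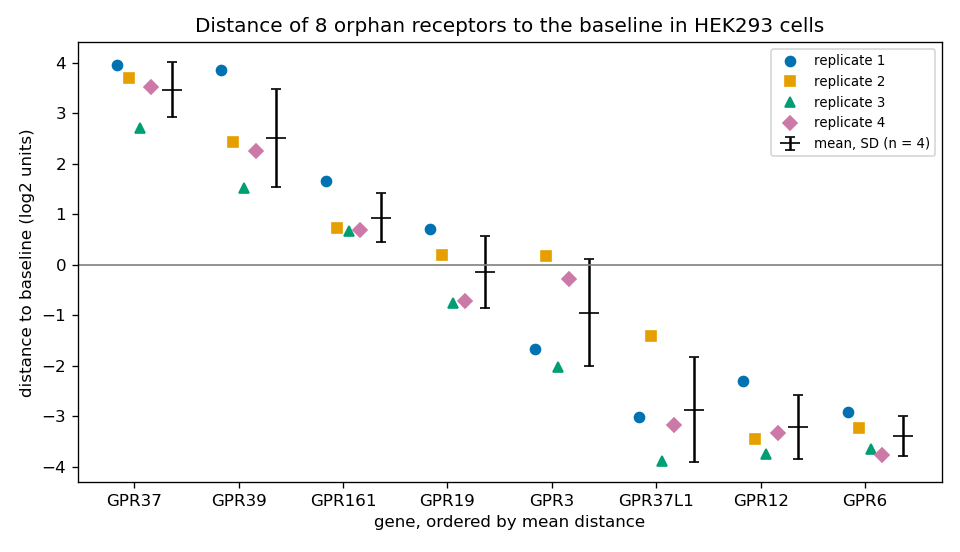
Distance to the baseline in log2 units (y axis, gray line at 0) for the 8 receptors in order of their mean (x axis), with 1 symbol per array and the mean and SD over 4 arrays in black. GPR37, GPR39 and GPR161 sit above 0 on every array, from 0.67 to 3.95, GPR19 and GPR3 lie on both sides, and GPR37L1, GPR12 and GPR6 sit below 0 on every array.

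The sequence before the start of each gene was examined for 6 of the 8 receptors, for which a promoter window was held (RefSeq, GRCh38.p14). The 250 bases before the start held from 1 CG pair (GPR161) to 42 (GPR12), against a median of 18 over 13807 named genes. Over those genes the detected share was 14.2% with 0 to 4 CG, 31.9% with 5 to 9, 64.7% with 10 to 19 and 71.8% with 20 or more. Among the 6 receptors, GPR161 with 1 CG was detected, while GPR3 with 37 and GPR12 with 42 were not. GPR39 had 19, GPR6 had 14 and GPR37L1 had 10. Each gene is represented by 1 start site only. The windows with the fewest and the most CG pairs and that of the detected receptor between them are shown, 5′ to 3′, with each CG in capitals.

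GPR161 (chr1:168137668-168137917, - strand): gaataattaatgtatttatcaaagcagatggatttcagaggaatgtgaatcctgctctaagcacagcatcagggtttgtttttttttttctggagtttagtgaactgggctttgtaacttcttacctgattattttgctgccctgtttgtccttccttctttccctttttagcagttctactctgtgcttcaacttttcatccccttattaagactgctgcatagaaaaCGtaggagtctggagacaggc

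GPR39 (chr2:132416555-132416804, + strand): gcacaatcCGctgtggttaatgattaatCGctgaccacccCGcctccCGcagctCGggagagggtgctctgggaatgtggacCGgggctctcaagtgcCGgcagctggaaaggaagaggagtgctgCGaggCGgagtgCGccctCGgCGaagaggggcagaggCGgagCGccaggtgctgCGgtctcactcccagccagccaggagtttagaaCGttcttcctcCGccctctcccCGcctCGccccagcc

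GPR12 (chr13:26760787-26761036, - strand): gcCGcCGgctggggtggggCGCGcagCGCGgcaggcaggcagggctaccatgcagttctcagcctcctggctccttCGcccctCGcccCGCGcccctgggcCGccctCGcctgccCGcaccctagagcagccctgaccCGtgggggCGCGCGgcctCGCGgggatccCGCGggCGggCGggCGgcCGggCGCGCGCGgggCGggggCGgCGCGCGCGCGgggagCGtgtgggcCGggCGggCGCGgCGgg

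GPR37 stood furthest above the baseline. Its distance was 3.95, 3.70, 2.70 and 3.52 log2 units on replicates 1 to 4, a mean of 3.47 ± 0.54 (SD, n = 4). Its level ranked between the 84.7th and the 91.1st percentile of all genes on the 4 arrays. On every array all 3 of its probes exceeded the baseline, at mean distances of 2.21, 3.86 and 3.78. The second and the third probe varied little, with levels of 13.84 to 14.20 and 13.75 to 14.09, whereas the first ran from 11.48 on replicate 3 to 12.93 on replicate 4. GPR37 was detected under every alternative rule run, with distances from 2.15 to 5.79.

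The relative GPR37L1 lay below the baseline on all 4 arrays. Its distance was -3.01, -1.42, -3.88 and -3.16 log2 units on replicates 1 to 4, a mean of -2.87 ± 1.04 (SD, n = 4). Replicate 2 was the highest for the gene and for each of its 3 probes (7.26, 9.24 and 8.44 log2 units), while all 3 stayed below the baseline on every array. On replicate 2 its level exceeded that of 98.4% of 364 olfactory receptor genes, which serve here as a further set of genes unlikely to be transcribed, and on the other arrays that of 24.7% to 70.9%.

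Glial markers were read beside this pair of receptors. Of 9 oligodendrocyte markers 2 were detected, CNP at 2.01 ± 0.78 and OLIG2 at 0.74 ± 0.38 (SD, n = 4 for each). The myelin genes MAG and MOG lay at -2.62 ± 1.02 and -2.68 ± 0.42 log2 units (SD, n = 4 for each). MBP, also a myelin gene, lay closer to the baseline at -0.36 ± 0.93 (SD, n = 4), and exceeded it on replicate 1 alone, at 0.94. Of 7 astrocyte markers 3 were detected, the gap junction gene GJA1 at 2.86 ± 1.09, the glutamate transporter gene SLC1A3 at 2.42 ± 1.09 and GFAP at 0.16 ± 0.78 (SD, n = 4 for each), the last on 2 of 4 arrays, and without GFAP in the pair of replicates 3 and 4 the list had 2 detected genes. The oligodendrocyte count of 2 was 1 with a baseline of 3 SD and 6 with olfactory genes as controls. AQP4 and S100B lay below the baseline on every array. The mean level of the oligodendrocyte list ran from 8.79 to 9.26 log2 units across arrays and that of the astrocyte list from 9.15 to 9.75, and their part in the signals of GPR37 and GPR37L1 was not tested.

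For the genes that follow, a two-sided limma test of the distance against 0 was made over all 17217 genes with Benjamini-Hochberg adjustment. It placed 45.8% of genes above the baseline and 41.1% below. The test used 1 standard error for all genes, so passing reflects the mean distance and not a gene's own spread. The prosaposin gene PSAP stood at 4.84 ± 0.84 log2 units (SD, n = 4) and passed above, while ENHO, which encodes adropin, a peptide proposed as a ligand of GPR19, stood at -1.35 ± 0.51 and passed below. Of 5 genes linked to GPR37 through folding or degradation, 4 passed above. They were the heat shock protein gene HSPA1A at 4.86 ± 0.66, the ubiquitin ligase genes STUB1 at 4.37 ± 0.57 and SYVN1 at 1.47 ± 0.56, and LRP6, a Wnt co-receptor that GPR37 helps to fold, at 3.63 ± 0.25 (SD, n = 4 for each). HSPA1A has a near-identical copy, so its probes may read both genes.

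GPR39, the zinc receptor, was detected with probes that did not match each other. The gene's distance was 3.85, 2.43, 1.53 and 2.25 log2 units on replicates 1 to 4, a mean of 2.51 ± 0.97 (SD, n = 4). Its first probe, in the order of the numbers in the probe names, had levels of 6.19, 5.59, 7.12 and 6.61, under the baseline of each array. The second probe had levels of 14.10, 13.16, 12.80 and 13.05, and the third 13.68, 12.69, 12.78 and 13.24, and no array put either below the baseline. The range between the mean levels of the 3 probes was 6.90 log2 units, and 0.521% of 23999 targets with 3 probes had a range as wide. Over all targets the median range was 1.44. Among the 11596 detected targets the median range was 1.94, and 1.08% had a range as wide as that of GPR39. With the mean of the log2 probe values GPR39 stood at 1.15 and with their median at 3.08, above the baseline in either case.

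LYPD1, which encodes a small membrane-anchored protein of the Ly6 family, overlaps GPR39 on the opposite strand in the RefSeq gene table. Labelling started from double-stranded cDNA with random primers and so did not keep the strand. LYPD1 stood at 2.94 ± 0.77 log2 units above the baseline (SD, n = 4), and its 3 probes each exceeded the baseline on every array. Its second probe had levels of 13.89, 13.18, 13.16 and 13.56 on replicates 1 to 4, in the range of the second and the third GPR39 probe. On these arrays RNA of GPR39 and of LYPD1 cannot be told apart at probes in the shared stretch. Where the probes lie in the transcripts was not analysed here, and the part of LYPD1 in the GPR39 signal was not tested. The nearest gene beyond the overlap, NCKAP5, lay at -1.72 ± 0.61 (SD, n = 4).

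**Figure D2:**
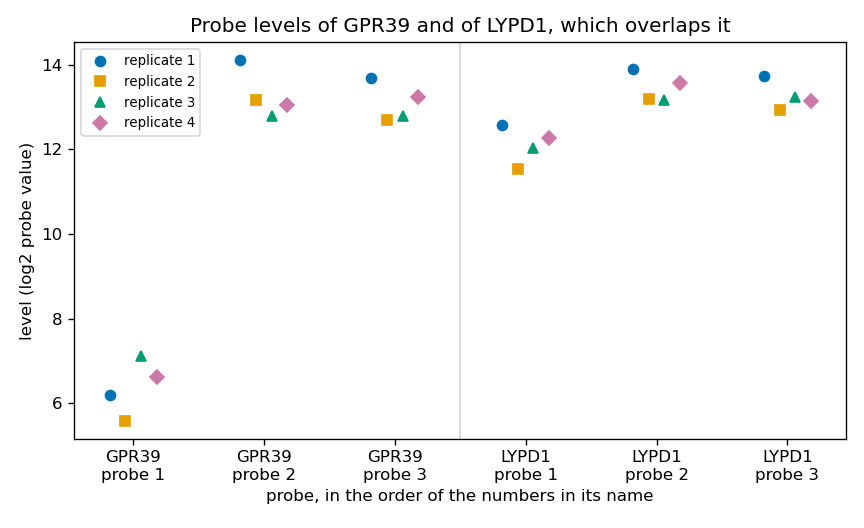
Level in log2 units (y axis) of the 3 probes of GPR39 and the 3 probes of LYPD1 (x axis), with 1 symbol per array. The first GPR39 probe lies between 5.59 and 7.12, the other GPR39 probes between 12.69 and 14.10 and the LYPD1 probes between 11.54 and 13.89.

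Zinc handling around GPR39 was read from the SLC30 genes, which move zinc out of the cytosol, and the SLC39 genes, which move it in. Of 24 listed genes 23 were measured and 15 were detected, and limma placed 13 above the baseline and 7 below. With a baseline of 3 SD the 13 became 8. The highest above the baseline on all arrays were SLC39A6 at 4.48 ± 0.64, SLC39A1 at 4.15 ± 0.80, SLC39A7 at 4.11 ± 0.93, SLC39A10 at 3.06 ± 0.88 and SLC39A14 at 3.00 ± 0.88 (SD, n = 4 for each). The lowest were SLC30A4, SLC39A12 and the pancreatic islet transporter SLC30A8, at -2.86 to -3.72. SLC39A3 (0.21 ± 0.51) and SLC30A3 (-0.23 ± 0.50) lay near the baseline (SD, n = 4 for each), and their adjusted p by limma was 0.574 and 0.543.

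GPR161, the ciliary receptor, was detected through 1 of its 3 probes. Its distance was 1.65, 0.72, 0.67 and 0.69 log2 units on replicates 1 to 4, a mean of 0.93 ± 0.48 (SD, n = 4). Replicate 1 stood apart in the distance, whereas the levels of 11.12, 10.66, 11.36 and 11.01 did not set it apart. The first probe exceeded the baseline on every array, with a mean distance of 2.05. The second, at -0.13, was above it on replicate 1 alone, and the third, at -0.75, on none. Of 11596 detected targets 10.2% had a single probe whose mean lay above the baseline. Without its first probe GPR161 fell to -0.38, and with the median of the probes it stood at 0.06. With a baseline of 3 SD it stood at -0.39. The neighbouring genes DCAF6 and TIPRL, which do not overlap it, were detected at 3.78 ± 0.66 and 1.26 ± 0.84 (SD, n = 4 for each).

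The transport of GPR161 into the cilium depends on TULP3 and the intraflagellar transport complex A, and its exit on the BBSome and beta-arrestins. Of 19 listed genes 18 were measured and 15 detected, and limma placed 14 above the baseline and 2 below. With a baseline of 3 SD the 14 became 3. The 14 also became 10 on replicates 3 and 4 only, and 11 with quantile normalisation over the 4 arrays. TULP3 stood at 3.10 ± 0.75 and the beta-arrestin gene ARRB2 at 4.79 ± 0.64 (SD, n = 4 for each). TTC21B and IFT43 of complex A stood at 2.23 ± 0.47 and 2.09 ± 0.47, and BBS4 of the BBSome at 2.07 ± 0.83 (SD, n = 4 for each). The genes below were BBS5 at -2.67 ± 0.47 and the receptor kinase GRK2 at -3.50 ± 0.68 (SD, n = 4 for each), and IFT140 stood at -0.36 ± 0.53 (SD, n = 4, limma adjusted p = 0.328).

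Of 7 hedgehog genes 6 were detected, with 4 above and 1 below the baseline by limma. The hedgehog receptor gene PTCH1 stood at 3.58 ± 0.30, KIF7 at 2.84 ± 0.45, SMO at 2.60 ± 0.61 and SUFU at 1.13 ± 0.74 (SD, n = 4 for each). The transcription factor genes differed. GLI3 stood at 0.54 ± 0.43 (limma adjusted p = 0.136) and GLI2 at 0.06 ± 0.69 (limma adjusted p = 0.871). GLI1 stood at -2.29 ± 0.61 and passed below (SD, n = 4 for each). Those 6 detected genes became 3 with a baseline of 3 SD and 5 in the pair of replicates 3 and 4, where GLI2 averaged below 0.

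GPR19 lay at the baseline and its call depended on the arrays used. Its distance was 0.70, 0.20, -0.75 and -0.71 log2 units on replicates 1 to 4, a mean of -0.14 ± 0.71 (SD, n = 4). Within the pair of replicates 1 and 2 it stood at 0.45 and within the pair of replicates 3 and 4 at -0.73. The levels before subtraction were closer to each other, at 10.17, 10.13, 9.94 and 9.61, with an SD of 0.26 against 0.71 for the distance and 0.52 for the baseline. The first probe, at levels of 10.69 to 11.49, exceeded the baseline on every array, while the second and the third, at 6.53 to 8.80, did so on none. Without the first probe GPR19 stood at -2.12, and with the median of the probes at -1.73. On every array GPR19 exceeded at least 99.2% of the olfactory receptor genes. Its neighbours CREBL2 and CDKN1B, which do not overlap it, stood at 1.62 ± 0.68 and 0.65 ± 1.18 (SD, n = 4 for each), and CDKN1B averaged below 0 in the pair of replicates 3 and 4.

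GPR3, GPR6 and GPR12 each lay below the baseline by the mean distance, and GPR3 alone of the trio exceeded it on an array, replicate 2. The distance of GPR3 was -1.66, 0.17, -2.03 and -0.27 log2 units on replicates 1 to 4, a mean of -0.95 ± 1.06 (SD, n = 4). Its level was 10.11 and 10.05 on replicates 2 and 4 and 7.80 and 8.66 on replicates 1 and 3, a difference of 1.85 between the means of the pairs. A difference at least that large in this direction was seen in 0.935% of all genes, and in 18.5% both of replicates 2 and 4 had a higher level than either of 1 and 3. GPR37 and GPR37L1 were also among those 18.5%, and GPR161 was among the 22.2% with the reverse order. The second GPR3 probe carried most of the difference of 1.85, with levels of 8.98, 11.51, 9.57 and 11.37 on replicates 1 to 4, while the first ran from 6.02 to 7.98 and the third from 6.68 to 8.23. Without the second probe GPR3 stood at -2.63. The labels give no difference between these plates. On each array GPR3 exceeded 96.4% to 99.7% of the olfactory receptor genes.

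GPR12 stood at -2.31, -3.45, -3.75 and -3.34 log2 units on replicates 1 to 4, a mean of -3.21 ± 0.63 (SD, n = 4). GPR6 stood at -2.91, -3.24, -3.65 and -3.77, a mean of -3.40 ± 0.39 (SD, n = 4). No probe of either gene reached the baseline on any array, and the ranges between their probes were 0.73 and 0.64 log2 units. Their levels exceeded 34.9% to 87.6% (GPR12) and 11.5% to 78.3% (GPR6) of the olfactory receptor genes, within the spread of that set. Beside these receptors in the gene table, FIG4 next to GPR6 and WASF2 next to GPR3 were detected, at 3.09 ± 0.51 and 3.05 ± 0.79, and CD164L2 on the other side of GPR3 was not, at -2.24 ± 0.73 (SD, n = 4 for each). GPR6, GPR12 and GPR37L1 were not detected under any alternative run.

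**Figure D3:**
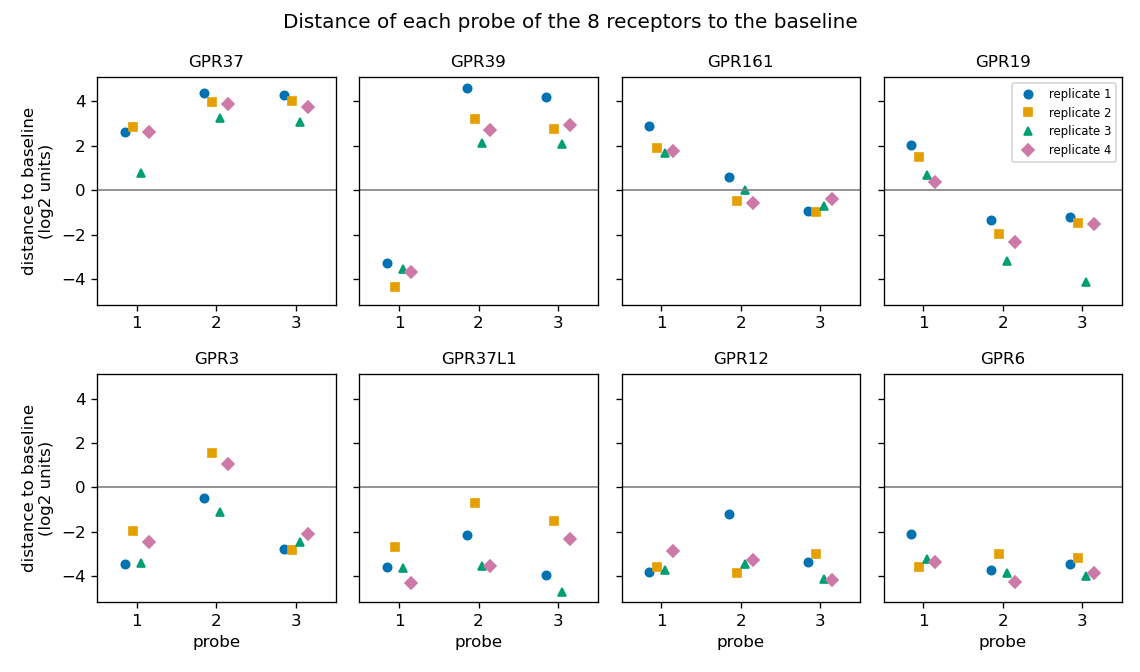
Distance to the baseline in log2 units (y axis, gray line at 0) of the first, second and last probe (x axis) of each receptor, with 1 panel per gene and 1 symbol per array. All 3 probes of GPR37 lie above 0, GPR39 has its first probe near -3.73 and the others near 3, and GPR161 and GPR19 have the first probe above 0 on all arrays and the others mostly or wholly below.

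GPR3, GPR6, GPR12 and GPR161 act through Gs and cyclic AMP, and the genes of that route were read together. Of 19 listed genes 14 were detected, and limma placed 14 above the baseline and 5 below. With a baseline of 3 SD the 14 above became 5. GNAS, the gene of the Gs alpha subunit, stood at 5.03 ± 0.73, the protein kinase A subunit genes PRKAR1A and PRKACA at 4.20 ± 1.01 and 3.29 ± 0.50, GNAL at 3.06 ± 0.87 and the adenylyl cyclase gene ADCY6 at 2.29 ± 0.73 (SD, n = 4 for each). The lowest were the cyclase genes ADCY5, ADCY2 and ADCY8, at -2.74 to -3.47.

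**Figure D4:**
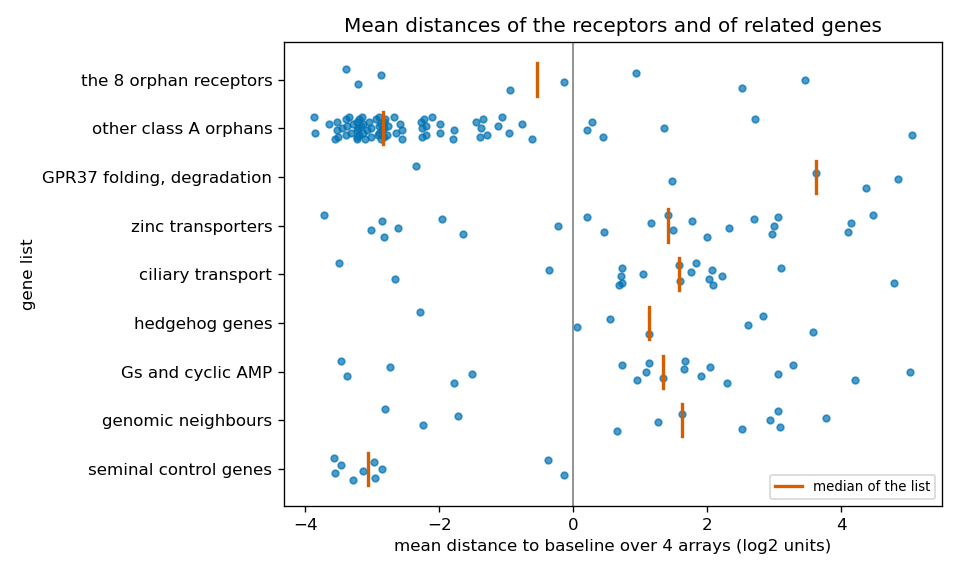
Mean distance to the baseline over 4 arrays in log2 units (x axis, gray line at 0) for every measured gene of 9 lists (y axis), 1 point per gene with the median of each list in orange. The 8 receptors spread from -3.40 to 3.47, the other class A orphans have a median of -2.85, and the lists of zinc, ciliary, hedgehog and Gs genes have medians from 1.13 to 1.58.

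By mean distance the receptors stood in the order GPR37, GPR39, GPR161, GPR19, GPR3, GPR37L1, GPR12 and GPR6. This is an order of probe signals against the baseline and not of transcript amounts, and the place of GPR39 rests on probes far apart from each other. The first 4 kept this order on each of the 4 arrays. GPR19 and GPR3 did not differ beyond the spread between arrays (0.81 ± 1.27 log2 units, SD, n = 4). GPR37L1, GPR12 and GPR6 lay below the baseline on every array, so no order is given among them.

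The other class A orphan receptors gave 6 detected genes of 76 (7.89%), with a median distance of -2.85 against -0.55 for the 8 receptors and 0.26 for all named genes. The 8 receptors were chosen with their distances known, so setting them beside the other orphans is a description and not a test. The 6 detected orphans were GPR50, LGR5, LGR4, GPR63, GPR176 and GPR162, and limma placed 3 of them, GPR50, LGR5 and LGR4, above the baseline. The lowest were GPR149, MRGPRE and P2RY10, at -3.65 to -3.87. The 3 orphans with the most similar distances were then found for each receptor, by the root mean square difference over the 4 arrays in log2 units. For GPR37 they were LGR5 (0.79), GPR50 (1.64) and LGR4 (2.23), and for GPR39 LGR5 (0.65), LGR4 (1.30) and GPR63 (2.23). GPR161 had LGR4 (0.69), GPR63 (0.73) and GPR162 (0.87) nearest to it. For GPR19 and GPR3 the differences were larger than for the receptors at background, with GPR34 (0.81) and GPR84 (0.68) the nearest. GPR162 and GPR63 followed for GPR19, and GPR160 and GPR27 for GPR3. MRGPRF (0.33), GPR26 (0.35) and GPR31 (0.38) were the nearest to GPR37L1. P2RY8 (0.23) and GPR132 (0.28) were among the nearest to GPR6, and MRGPRX1 (0.20), TAAR6 (0.20) and GPR82 (0.22) were the nearest to GPR12.

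Which receptors counted as detected changed with the control genes. Of the 10 control genes measured, SPATA13 and AFG2A, which the study lists as SPATA5, had mean levels of 9.72 and 9.97 log2 units, against 6.53 to 7.25 for the other 8. Without these genes the baseline fell to 7.78 and 5 of the 8 receptors were detected, the additional ones being GPR19 at 2.19 and GPR3 at 1.38. The same 5 were detected with olfactory receptor genes, with Y-linked genes, with a baseline from the median and the MAD (median absolute deviation, scaled) of the seminal list, and with 1 SD. With 3 SD, GPR37 and GPR39 were the 2 detected.

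**Figure D5:**
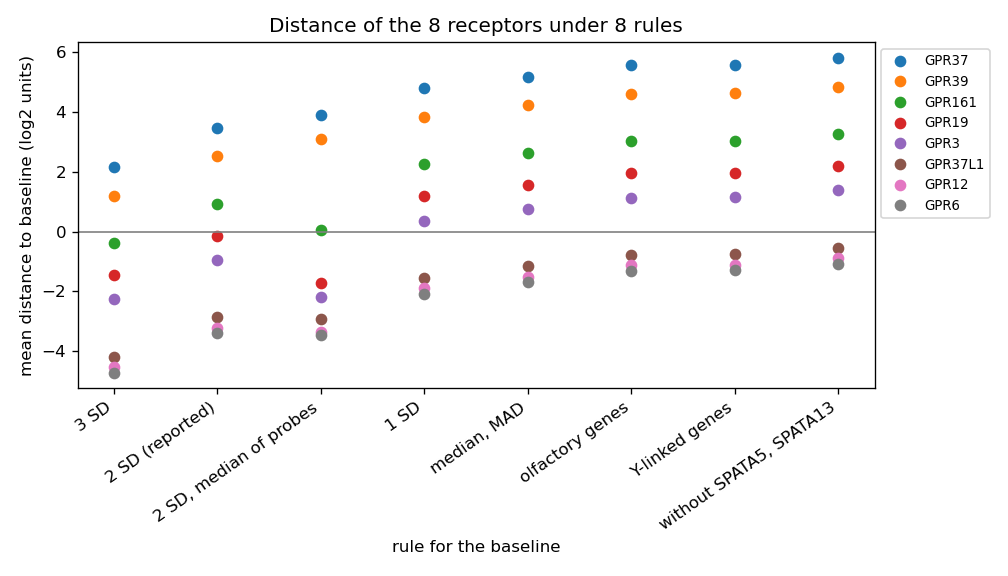
Mean distance to the baseline in log2 units (y axis, gray line at 0) of the 8 receptors under 8 rules for the baseline or the probe summary (x axis), 1 colour per gene. GPR37 and GPR39 lie above 0 under all 8 rules, GPR161 falls to -0.39 with 3 SD, GPR19 and GPR3 rise above 0 under the 5 rules with lower baselines, and the other 3 genes stay below 0.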

How the data were processed

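Poly(A) RNA within total RNA of 4 untreated HEK293 plates was reverse transcribed with oligo(dT), made double-stranded, labelled with Cy3 and hybridised to NimbleGen HG18 60-mer arrays. For each array the authors deposited log2 values of 71998 probes, extracted with NimbleScan, and the submitters' processing notes name RMA. After sorting, the values of replicates 1 and 2 differed by at most 0.01 at 99.97% of ranks. For replicates 3 and 4 the share was 99.99% and between the pairs 1.23% to 1.25%, as quantile normalisation within each pair would give. Raw intensities were not analysed here, and the number of arrays limits the precision.

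Probe accessions were matched without versions to RefSeq genes (GRCh38.p14, names and neighbours only), which named 19125 of 24000 targets. A gene's level was the mean over its targets of log2 of the mean linear probe value. The baseline used 10 of the 11 seminal genes of the study (PYY2 was not matched). Distances of all named genes were tested against 0 with limma 3.58 in R 4.3 (two-sided, Benjamini-Hochberg threshold 0.05). A check on simulated data drew values independently for each gene and array. It held no shared baseline and no pairs of arrays, so it did not cover errors from those. In the fit to the measured distances the prior degrees of freedom were infinite, so 1 standard error, 0.351, served all genes. A gene thus passed by its mean distance alone, whatever its own spread between arrays, and the pairs of arrays were not modelled. The baseline of an array enters the distance of every gene, so the tests are not independent of each other. With 4 arrays the smallest two-sided p of an exact sign-flip test is 0.125, and none was made. The members and gene lists were chosen with earlier results of these data known, and no list is independent evidence.

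Named were the members, the control genes, genes of the lists, genomic neighbours and the 3 nearest other class A orphans of each member. Some genes that this rule names are not reported here. In lists of more than 10 genes this meant the 5 highest above the baseline on all arrays, the 3 lowest and those within 0.3 log2 units of the baseline. Alternatives were other baselines, probe summaries and scalings, single pairs of arrays, 1 array left out and, added after the probe values were seen, 1 probe left out.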

Additional observations from a re-analysis of the deposited data

Results flagged for a closer look

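An array standing apart from the other 3 was looked for in 142 distances and levels, by the gap to the nearest array divided by the whole range and Dixon's 95% critical value. Chance alone marks about 1 in 20, and 7 were marked.

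Replicate 1 stood apart for GPR161, whose distance there was 1.65 against 0.67 to 0.72 elsewhere (gap over range 0.945), while its levels did not stand apart. Replicate 4 stood apart for the first GPR19 probe, with a level of 10.69 against 11.39 to 11.49 elsewhere (gap over range 0.877). The other 5 were distances of genes read beside the receptors. For the control genes SPESP1 (replicate 1) and ODF1 (replicate 4) the ratios were 0.836 and 0.862. For the orphan receptor GPR149 (replicate 2) it was 0.838 and for the zinc transporter SLC39A12 (replicate 2) 0.909. For the oligodendrocyte gene MYRF (replicate 1) it was 0.881. MYRF lay above the baseline on replicate 1 at 0.35 and at -0.90 to -0.75 on the others.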

How the results depend on the processing

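The height of the baseline and the choice of probes moved the calls most. The number of receptors detected, 3 as reported, was 5 with 1 SD, with the median and MAD, without SPATA5 and SPATA13, with olfactory genes and with Y-linked genes. In that order GPR19 stood at 1.18, 1.57, 2.19, 1.94 and 1.96 log2 units, and GPR3 at 0.37, 0.76, 1.38, 1.13 and 1.15. The count of other class A orphans, 6 as reported, was 12, 16, 27, 20 and 20 under these rules and 3 with 3 SD. ENHO joined PSAP under all of these rules but 1 SD, which made 2 proposed ligands detected. With 3 SD, 3 hedgehog genes were detected and GPR161 stood at -0.39. GPR19 stood at 0.45 on replicates 1 and 2 only, and leaving out 1 replicate at a time gave GPR19 values of -0.42 to 0.062, above 0 without replicate 3 or replicate 4. Each probe was left out in turn, an alternative chosen after the probe values were seen. GPR161 then stood at -0.38 without its first probe, and GPR19 at -2.12 without its first, 0.32 without its second and 0.28 without the third, and GPR3 at -2.63 without its second. The cause of these changes was not tested beyond what each rule changes by construction. Over the alternatives, 92 values of the members' distances stayed within 1 SD, 43 moved further and 17 changed sign, and 157 counts of detected genes stayed within 1.5 times and 16 did not. Of the marker counts and limma counts 241 stayed within 1.5 times and 43 did not. With 3 SD the limma counts above the baseline fell from 13 to 8 for zinc, 14 to 3 for the cilium and 14 to 5 for Gs, and with olfactory genes that of the orphans rose from 3 to 15. Oligodendrocyte markers detected ran from 1 to 6 and the fibroblast, endothelial and blood list from 0 to 4. No paired analysis was possible because there is 1 group.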
